A study of Rattus norvegicus with 6 samples.

Results

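The aminoacyl-tRNA synthetases are the enzymes that join each amino acid to its transfer RNA. They were followed here in the livers of male rats dosed with either vehicle or tBA, the solvent tert-butyl alcohol. The list held 35 genes, 19 enzymes that work in the cytosol and 16 that work in mitochondria. These genes were chosen by name, with earlier results of these data known. Of these, 31 had a probe that could be named on the array, 18 cytosolic and 13 mitochondrial, among 15284 genes with a named probe in the whole series. Gars1, Iars2, Lars2 and Mars2 had no named probe and were not analysed here.

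The rats were Sprague-Dawley (Crl:CD(SD)) males, an outbred stock, bought at 5 weeks of age and kept on a basal diet with tap water. The treated group was 3 rats given tBA at 1000 mg/kg/day and the control group 3 rats given vehicle, with 1 one-colour Agilent array of total liver RNA per rat. The labels disagreed on the vehicle, which was purified water in the sample entries and corn oil in the treatment text, and on the duration, which was 28 days in the series text and 9 weeks in the treatment text. Arrays of 3 vehicle rats and of tBA replicate 1 lay on slide 1, and those of tBA replicates 2 and 3 on slide 2, so a comparison within a slide set 3 vehicle arrays against 1 tBA array. Each slide was also a separate scan, per the file headers, so slide and scan cannot be told apart. Between 61.5% and 66.9% of 61657 probes were well above background on an array, and no spot was saturated. The 10 hepatocyte markers, Alb and Apoa1 among them, were all above background on all 6 arrays.

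A synthetase recognises 1 amino acid and its matching transfer RNAs, and the charged transfer RNA carries the amino acid to the ribosome. The cytosolic enzymes serve the translation of nuclear messages, and a separate nuclear-encoded set serves the ribosomes inside mitochondria, which make core subunits of the respiratory chain. Some cytosolic enzymes are held together in a multi-synthetase complex by scaffold proteins. When uncharged transfer RNA accumulates, the kinase GCN2 phosphorylates the translation factor eIF2, and the transcription factor ATF4 is then made and, with C/EBP partners, raises many cytosolic synthetase genes through a C/EBP-ATF response element. In liver, which makes most plasma proteins and handles amino acids from the gut, this pathway is known for its response to amino acid supply.

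The C/EBP-ATF element is shown first because it occurred in promoters of the cytosolic list and in none of the mitochondrial list. RefSeq promoter windows of the GRCr8 assembly, from 250 bases before to 50 bases after the gene start, were found for 33 of the 35 genes, without Gars1 and Rars1. The letters TGATGNAA, read on either strand, occurred in 7 of 17 cytosolic promoters (41.2%), in 0 of 16 mitochondrial promoters and in 3.98% of all 33469 promoter windows. The 7 were Aars1, with 2 matches, and Cars1, Iars1, Mars1, Nars1, Tars1 and Yars1. Stretches of 6 of them follow, printed 5′ to 3′ on the gene's own strand with the match in capitals. They are Tars1 at chr2:62114803-62114862 (minus strand), Mars1 at chr7:65023754-65023813 (minus strand), Iars1 at chr17:15193653-15193712 (minus strand) and Aars1 at chr19:55908342-55908401 (plus strand), all before the start, and Cars1 at chr1:208225334-208225363 (minus strand) and Yars1 at chr5:146820183-146820212 (plus strand), just after it.
Tars1: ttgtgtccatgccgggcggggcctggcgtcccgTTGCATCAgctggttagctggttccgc
Mars1: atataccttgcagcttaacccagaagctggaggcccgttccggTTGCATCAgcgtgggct
Iars1: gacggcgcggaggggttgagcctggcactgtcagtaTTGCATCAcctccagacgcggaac
Aars1: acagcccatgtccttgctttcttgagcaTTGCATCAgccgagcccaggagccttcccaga
Cars1: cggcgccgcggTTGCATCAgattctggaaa
Yars1: cggagctacgagctcagcTGATGCAAcctg
In these 6 stretches the variable position of the element held the same base, read as TTGCATCA on the gene strand in all but Yars1, where the same letters ran in the other direction. The 60 bases before the start of the 3 mitochondrial genes with the lowest p-values are printed for comparison and hold no match: Ears2 at chr1:186057075-186057134 (minus strand), Yars2 at chr11:98142293-98142352 (minus strand) and Vars2 at chr20:3081848-3081907 (plus strand).
Ears2: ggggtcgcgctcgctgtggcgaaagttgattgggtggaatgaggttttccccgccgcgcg
Yars2: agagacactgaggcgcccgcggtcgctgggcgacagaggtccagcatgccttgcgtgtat
Vars2: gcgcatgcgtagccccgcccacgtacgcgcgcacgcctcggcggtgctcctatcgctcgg
Other motifs had similar counts in both compartments. The palindromic core of the site for NRF1, a factor of genes for mitochondrial proteins, was in 3 of 17 cytosolic, 3 of 16 mitochondrial and 4.25% of all promoters. The TATA box core TATAAA was in 2 of 17, 3 of 16 and 14.2%. A match describes the letters in the window and not a bound factor.

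Across the 31 measured synthetases, no gene passed the test between tBA and vehicle liver. The count of members with an adjusted p under 0.05 in limma was 0, against 5 of 11093 genes tested, or 0.0451% of them. All 31 were well above background on all 6 arrays, so none was lost to low signal. At an unadjusted p under 0.05 there were 0 of 18 cytosolic and 3 of 13 mitochondrial enzymes, beside 15.1% of all genes (7.64% higher and 7.44% lower). The median size of a difference was 0.083 on the log2 scale for the 31 synthetases and 0.16 for all genes tested. Values in this text are log2 signals relative to the 75th percentile of the array, and differences are tBA minus vehicle. They compare a probe with itself between rats and not 1 gene with another. In whole liver, fewer cells of a type and less RNA per cell cannot be told apart.

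**Figure D1:**
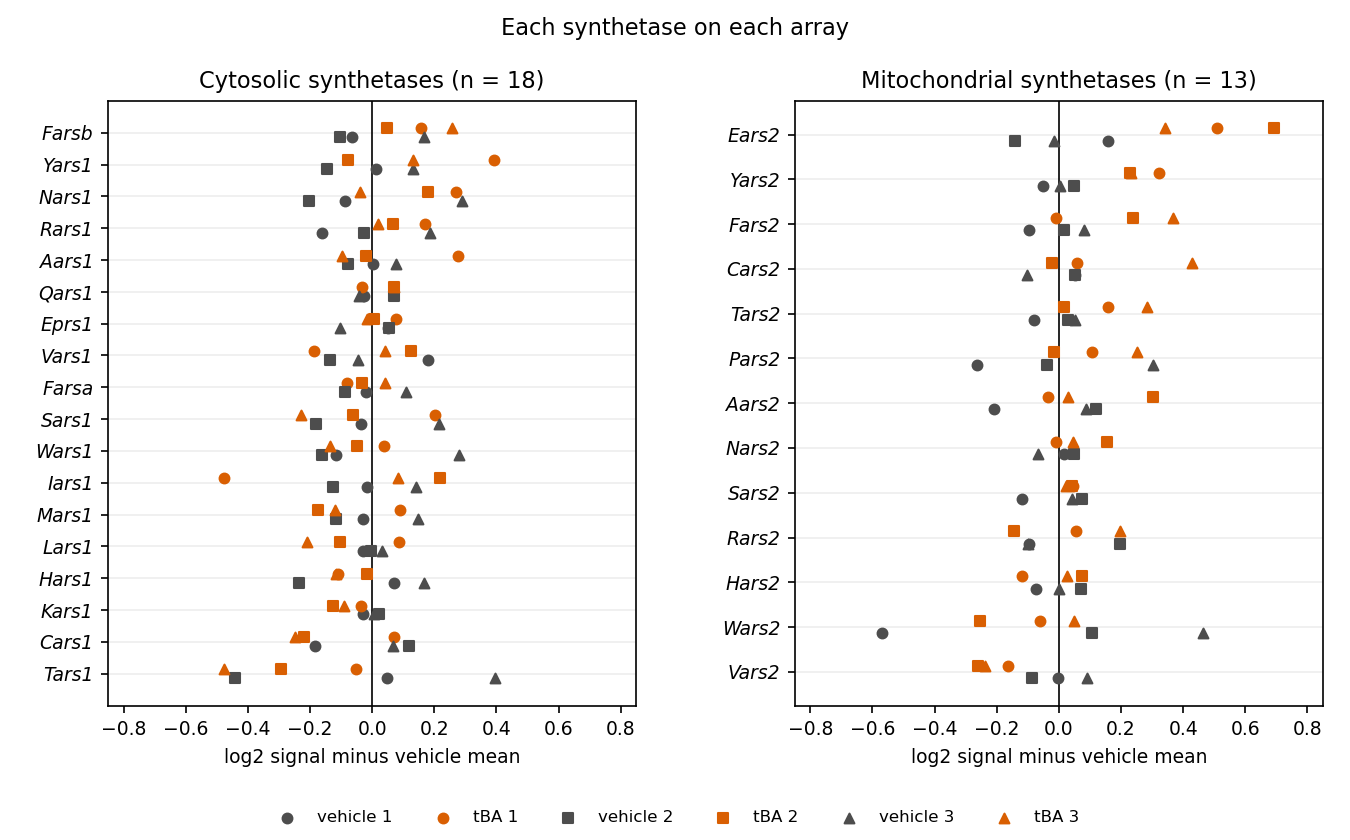
Log2 signal of each measured synthetase on each array, minus the mean of its 3 vehicle arrays, for 18 cytosolic (left) and 13 mitochondrial enzymes (right); grey points are vehicle and orange points tBA, with the marker shape giving the replicate. The groups overlap for 17 of the 18 cytosolic enzymes, and Ears2 and Yars2 have all tBA points to the right of all vehicle points.

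The cytosolic enzymes lay close to 0 difference. Their median difference was -0.026, with 7 higher and 11 lower in tBA liver, where 50.6% of all genes were higher, and it turned to 0.047 when arrays were scaled by their median, to 0.019 with normexp background correction, to 0.014 without vehicle replicate 3 and to 0.072 within slide 1. The median of all genes was 0.0032. Differences ran from -0.27 for Tars1 to 0.15 for Farsb, and 17 of the 18 were under 0.2 in size, which 60.7% of all genes also were. All 18 intervals of 95% spanned 0, and 14 of 18 lay within 0.5 of 0, a 1.41-fold difference either way. The groups did not overlap for 1 of 18, Kars1, beside 24.1% of all genes.

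**Figure D2:**
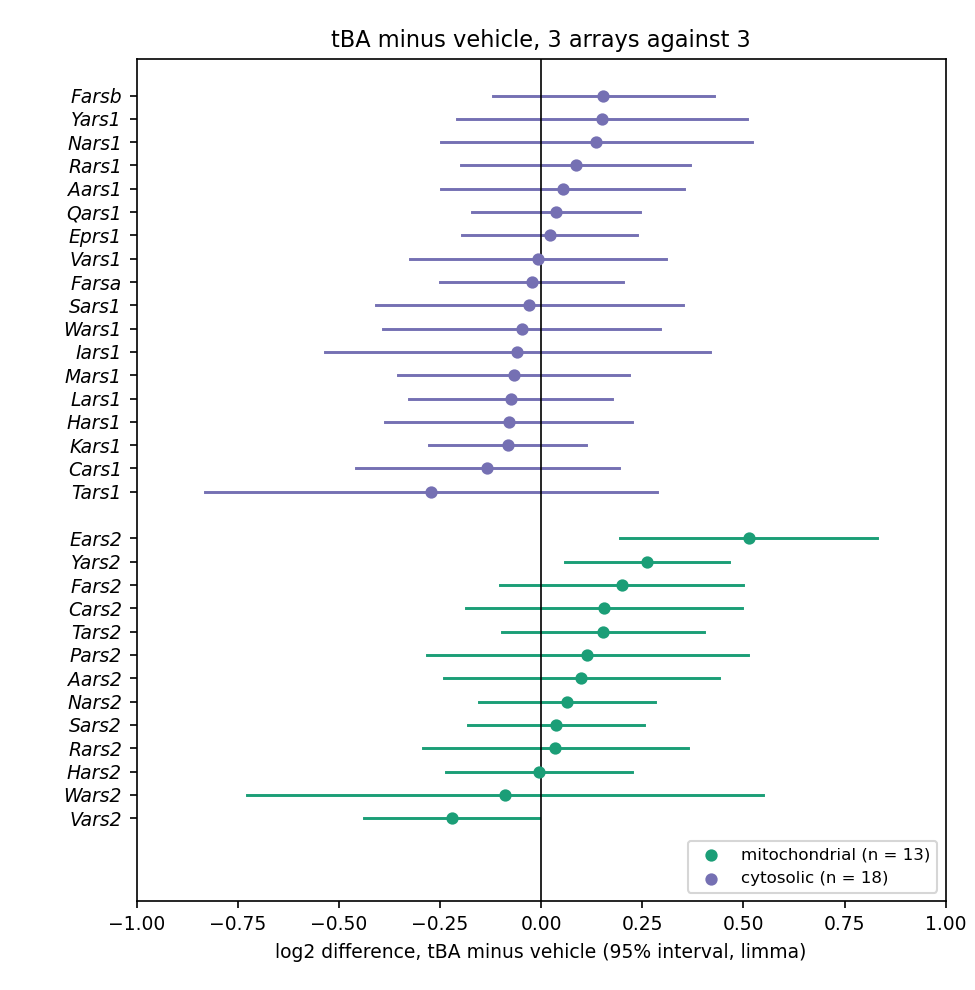
Fitted log2 difference, tBA minus vehicle, of each measured synthetase with its 95% interval from limma, 3 arrays against 3. The intervals of all 18 cytosolic enzymes cross 0, and those of Ears2, Yars2 and Vars2 among the mitochondrial enzymes do not.

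Tars1, the threonyl enzyme, had the largest cytosolic difference and also the widest spread. Its signal was 5.55, 5.05 and 5.89 on vehicle arrays 1 to 3 and 5.45, 5.20 and 5.02 on tBA arrays 1 to 3. Vehicle 3 was the highest and tBA 3 the lowest, and tBA 1 and 2 lay inside the vehicle range. The difference was -0.27 (SE 0.23, 95% interval -0.83 to 0.29, n = 3 against 3, limma adjusted p = 0.573). With vehicle replicate 2 left out it was -0.49 (unadjusted p = 0.0388, limma adjusted p = 0.414), with vehicle replicate 3 left out -0.076, and within slide 1 -0.051, so its size rested on single arrays. Its other probes were at -0.45 and -0.29, and neither passed.

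Kars1, the lysyl enzyme, which serves both compartments, had the smallest standard error of the 31. It read 3.20, 3.25 and 3.23 in vehicle liver and 3.19, 3.10 and 3.14 in tBA liver. All tBA arrays were below all vehicle arrays, by a difference of -0.083 (SE 0.080, limma adjusted p = 0.62), and its other probes were at 0.0048 and -0.0083 with groups that overlapped. With normexp correction the difference was 0.0052.

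The cysteinyl enzyme Cars1 read 0.900, 1.20 and 1.15 in vehicle and 1.15, 0.864 and 0.837 in tBA liver. The lower tBA arrays, 2 and 3, were below all vehicle arrays, while tBA 1 was among them. Its difference was -0.13 (SE 0.13) and turned to 0.069 within slide 1. Farsb, the beta chain of the phenylalanyl enzyme, read 2.11, 2.07 and 2.34 against 2.33, 2.22 and 2.43, with a difference of 0.15 (SE 0.11). Its 3 probes were all higher in tBA liver, by 0.075 to 0.20, and the alpha chain Farsa was at -0.023. The groups overlapped for both chains.

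The tyrosyl enzyme Yars1 read 0.742, 0.582 and 0.861 in vehicle and 1.12, 0.651 and 0.861 in tBA liver. The array of tBA 1 stood highest and the other treated arrays were within the vehicle range, giving a difference of 0.15 (SE 0.15). The asparaginyl enzyme Nars1 read 0.0523, -0.063 and 0.428 against 0.408, 0.317 and 0.10, a difference of 0.14 (SE 0.16). Vehicle 3 was the highest of the 6 arrays here too.

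Eprs1, which charges glutamate and proline and lies in the complex, read 5.49, 5.49 and 5.34 in vehicle and 5.52, 5.45 and 5.42 in tBA liver. Its arrays lay within a narrow span, with a difference of 0.021 (SE 0.089) that was negative in 6 of 19 other settings. Some of these settings cannot change a difference, as the closing section states. Vars1, the valyl enzyme, read -2.68, -2.99 and -2.90 against -3.04, -2.73 and -2.82. The groups overlapped in part, with tBA 1 lowest and vehicle 1 highest of the 6 arrays, and a difference of -0.0076 (SE 0.13), positive in 5 of 19 settings. The other cytosolic enzymes were Rars1 at 0.085, Aars1 at 0.053, Qars1 at 0.037, Sars1 at -0.029, Wars1 at -0.048, Iars1 at -0.058, Mars1 at -0.068, Lars1 at -0.076 and Hars1 at -0.080.

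The 7 listed enzymes of the multi-synthetase complex were Eprs1, Iars1, Kars1, Lars1, Mars1, Qars1 and Rars1. Their differences lay between -0.083 and 0.085, with 3 higher, 4 lower and a median of -0.058, which turned to 0.0052 with normexp correction, 0.015 with median scaling and 0.076 within slide 1, and was -0.097 with quantile normalization. Iars1, the isoleucyl enzyme, had 1 array apart from the rest. It read 2.64, 2.53 and 2.80 in vehicle and 2.18, 2.88 and 2.74 in tBA liver, and its second probe was also lowest on tBA 1, at -0.21, with the other arrays between 0 and 0.361. Of the scaffold proteins, Eef1e1 (AIMP3) read 0.658, 0.718 and 0.672 against 1.06, 0.910 and 0.882, higher on all tBA arrays by 0.27 (SE 0.089, unadjusted p = 0.0224, limma adjusted p = 0.269). Aimp2 was at 0.14 and Aimp1 at -0.11, with groups that overlapped.

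The cytosolic enzymes shared an order of the arrays within each group, a pattern noticed after the values were seen. Vehicle 3 had the highest of the 3 vehicle signals for 13 of 18 enzymes (72.2%), beside 35.1% of all genes, and vehicle 2 the lowest for 12 of 18 (66.7%), beside 31.2%. In tBA liver, tBA 1 was highest for 12 of 18 (66.7%), beside 36.9% of all genes. The array of tBA 3 was lowest for 10 of 18 (55.6%), beside 35.8%. Of the tBA arrays only tBA 1 lay on slide 1, so rat, slide and scan cannot be told apart in the tBA order. The median of the 18, relative to each enzyme's vehicle mean, was -0.028, -0.11 and 0.14 on vehicle 1 to 3 and 0.072, -0.025 and -0.064 on tBA 1 to 3. The tBA medians lay inside the vehicle range, so the spread between arrays of a group was larger than the difference between groups. Among the 7 enzymes with the C/EBP-ATF letters, vehicle 3 was highest for 6 and tBA 1 highest for 6. Among the 10 with a promoter and no match the counts were 6 and 5. The 7 had a median difference of -0.058, with 3 higher and 4 lower, and the 10 without a match one of -0.026.

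The mitochondrial enzymes lay slightly above 0. Of 13, 10 were higher and 3 lower in tBA liver, with a median difference of 0.099 and a range from -0.22 for Vars2 to 0.51 for Ears2. The median was 0.0077 with normexp correction, -0.0042 without vehicle replicate 1 and 0.046 within slide 1. The array medians were -0.080, 0.050 and 0.044 for vehicle and 0.046, 0.042 and 0.20 for tBA, so vehicle 1 was low, tBA 3 was high, and the other arrays lay close together. Vehicle 1 had the lowest vehicle signal for 8 of 13 enzymes (61.5%), beside 33.4% of all genes. The groups did not overlap for 2 enzymes higher in tBA liver, beside 12.8% of all genes, and for 1 lower, beside 11.3%.

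Ears2, the mitochondrial glutamyl enzyme, which also charges the glutamine transfer RNA with glutamate, had the largest difference. It read 1.55, 1.25 and 1.37 in vehicle liver and 1.90, 2.08 and 1.73 in tBA liver. All tBA arrays were above all vehicle arrays, and the gap between the highest vehicle and the lowest tBA array was smaller than the range within each group. The difference was 0.51 (SE 0.13, 95% interval 0.20 to 0.83), a 1.43-fold higher signal with an interval from 1.15 to 1.78. It did not pass after adjustment (unadjusted p = 0.00723, limma adjusted p = 0.217), and the exact two-sided permutation p was 0.1, the smallest that 20 splits of 3 against 3 can give. Within slide 1, which held 1 tBA array, the difference was 0.51.

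The other Ears2 probes did not all differ in the same direction. A second bright probe read 1.19, 0.864 and 0.924 against 1.57, 1.68 and 1.39, a difference of 0.55 (SE 0.13, limma adjusted p = 0.203). The third probe, with a dim signal, read -2.12, -3.60 and -2.11 against -3.52, -3.20 and -2.78, a difference of -0.56 (SE 0.44, limma adjusted p = 0.545). Its vehicle arrays spanned more than its difference. The fourth probe, well above background on 5 of 6 arrays, was at 0.36 (SE 0.30). The mean of the probes was at 0.22 (limma adjusted p = 0.477), below the value of the brightest probe.

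**Figure D3:**
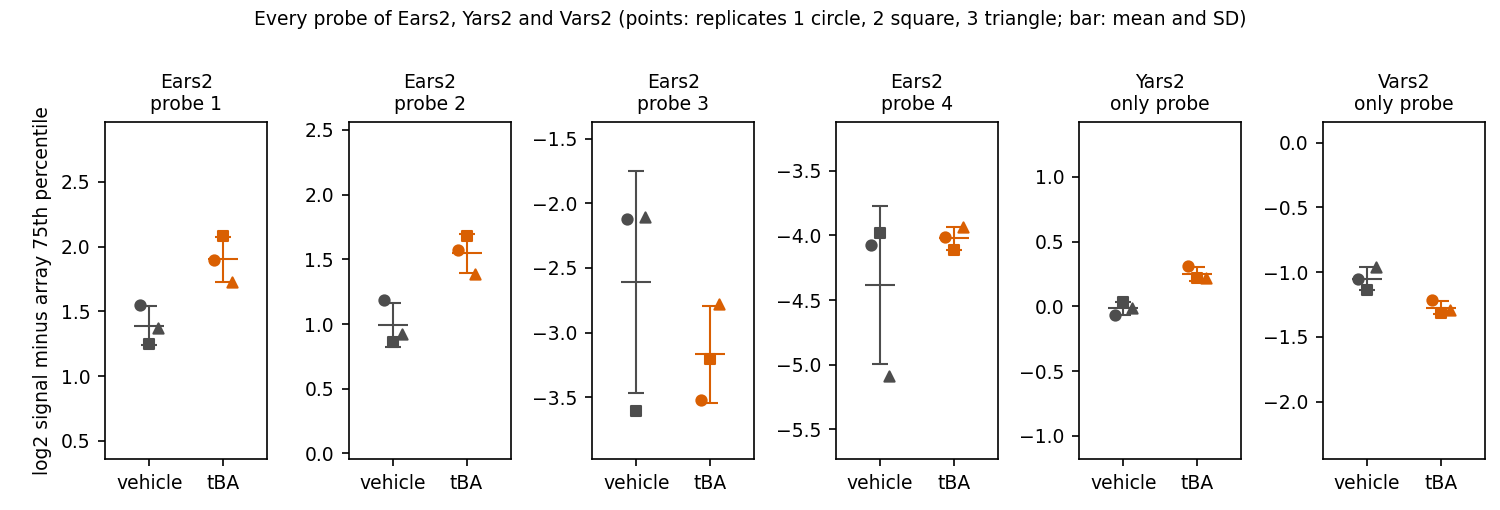
Log2 signal relative to the 75th percentile of the array for every probe of Ears2 (4 probes), Yars2 and Vars2 (1 each), with each array as a point and the mean and SD of 3 arrays as bars; each panel has its own zero and the same span. Probes 1 and 2 of Ears2 are higher on all tBA arrays, and probe 3, with the widest spread, runs the other way.

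Yars2, the mitochondrial tyrosyl enzyme, had a smaller difference with a tighter spread. It read -0.067, 0.0345 and -0.010 in vehicle and 0.310, 0.216 and 0.217 in tBA liver. The groups were apart, and the difference was 0.26 (SE 0.083, 95% interval 0.060 to 0.46, unadjusted p = 0.0189, limma adjusted p = 0.261), a 1.20-fold higher signal. The exact two-sided permutation p was 0.1, and within slide 1 the difference was 0.32. Vars2, the mitochondrial valyl enzyme, ran the other way, at -1.05, -1.14 and -0.963 in vehicle and -1.22, -1.31 and -1.29 in tBA liver. All tBA arrays were below all vehicle arrays, with a difference of -0.22 (SE 0.089, 95% interval -0.44 to -0.0043, unadjusted p = 0.0468, limma adjusted p = 0.312) and an exact two-sided permutation p of 0.1. It was -0.16 within slide 1 and -0.13 with normexp correction. Both genes were read by 1 probe each.

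The phenylalanyl enzyme Fars2 read 0.518, 0.630 and 0.694 in vehicle and 0.605, 0.852 and 0.981 in tBA liver. The higher tBA arrays, 2 and 3, were those on slide 2, and the difference of 0.20 (SE 0.12) was -0.0090 within slide 1. Tars2, the threonyl enzyme, read 4.11, 4.22 and 4.24 against 4.34, 4.20 and 4.47, with a difference of 0.15 (SE 0.10). Its tBA 2 array lay within the vehicle range, and its 3 probes were all higher, by 0.012 to 0.15. Wars2, the tryptophanyl enzyme, had the widest spread of the mitochondrial enzymes. It read -1.14, -0.461 and -0.104 in vehicle and -0.628, -0.820 and -0.519 in tBA liver, with a difference of -0.089 (SE 0.26). Leaving out vehicle replicate 3 gave 0.14, and leaving out vehicle replicate 1 gave -0.37. All tBA arrays lay inside the vehicle range.

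The alanyl enzyme Aars2 read -3.34, -3.02 and -3.05 in vehicle and -3.17, -2.83 and -3.11 in tBA liver. The groups overlapped, and the difference of 0.099 (SE 0.14) was -0.0042 without vehicle replicate 1 and -0.036 within slide 1. The histidyl enzyme Hars2 read 0.609, 0.755 and 0.684 against 0.566, 0.756 and 0.708, a difference of -0.0063 (SE 0.095). It is transcribed head to head with the cytosolic Hars1, with starts 144 bases apart in the GRCr8 assembly, and Hars1 was at -0.080. The remaining mitochondrial enzymes were Cars2 at 0.15, Pars2 at 0.11, Nars2 at 0.064, Sars2 at 0.037 and Rars2 at 0.035.

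Probes of a gene often differed in sign. Of 24 synthetases with several probes, 10 had probes on both sides of 0, 6 cytosolic and 4 mitochondrial. Apart from Ears2, the farthest apart were those of Wars2, at -0.089 and 0.13. The other 7 synthetases had 1 probe.

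Genes around the synthetases were counted by pathway lists that share no gene with them, and 0 genes of each pathway list passed in limma. Of 7 cytosolic elongation factors, 6 were higher and 1 lower in tBA liver, and the median difference was 0.13, with 0.016 to 0.20 over the other scalings and 0.020 within slide 1. Eef1d, an exchange factor for the elongation factor that delivers charged transfer RNA, read 5.82, 5.87 and 6.00 against 6.07, 6.23 and 6.18, a difference of 0.26 (SE 0.094, unadjusted p = 0.0295, limma adjusted p = 0.283). Eef1b2 was at 0.21 and Eef1g at 0.12, both with groups that did not overlap, and the kinase Eef2k was at -0.18. In this list 3 of 7 genes were higher without overlap, beside 12.8% of all genes. Of 10 mitochondrial translation factors, 7 were higher, and 0 had an unadjusted p under 0.05, beside 15.1% of all genes. Their median was 0.088, with 0.031 to 0.16 over the other scalings and 0.012 within slide 1. Mtrf1l, a release factor, was at 0.37. Qrsl1, a subunit of the amidotransferase that turns the glutamate placed by the Ears2 enzyme into glutamine, was at -0.31 (SE 0.13, limma adjusted p = 0.329). It was lower on all tBA arrays, as were 11.3% of all genes. Gatc, another subunit of that enzyme, added after its value was seen, was at -0.015 with groups that overlapped. The subunit Gatb had no named probe. Gfm1 was at 0.18 and Mrrf at 0.12. Of 12 genes of transfer RNA maturation and proofreading, 9 were higher and 0 had that p. Their median was 0.060, with 0.037 to 0.13 over the other scalings and 0.043 within slide 1, and 7 were higher in the setting with the lowest of these and within slide 1. By p these were led by Rpp30 at 0.25, and Rtcb and Tsen54 at 0.23 each.

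The upstream sensors and the ATF4 targets did not share 1 direction. The kinase GCN2, encoded by Eif2ak4, read 0.307, 0.243 and 0.208 in vehicle and -0.34, 0.146 and -0.23 in tBA liver. It was lower on all tBA arrays, by -0.39 (SE 0.14, unadjusted p = 0.0310, limma adjusted p = 0.285). The kinase PERK, Eif2ak3, was at -0.28, the phosphatase subunit Ppp1r15a at -0.39 and the kinase Eif2ak1 at 0.13. Over the 7 genes of this list the median was -0.17, and within slide 1 it was 0.080. Of 25 tested genes of the ATF4 and amino acid response, 15 were higher and 10 lower. Their median was 0.13, with 0.040 to 0.21 over the other scalings and 0.11 within slide 1. At an unadjusted p under 0.05, 3 were higher and 2 lower, beside 7.64% and 7.44% of all genes. The higher ones were Eif4ebp1, a repressor of translation, at 0.38, Trib3, a pseudokinase that restrains ATF4, at 0.73, and Nupr1, a stress regulator, at 0.62. The lower ones were Fgf21, a hepatic hormone of fasting, at -0.88, and Atf3 at -0.68. Atf4 itself was at -0.045 and Asns, the asparagine synthetase, at 0.23 (SE 0.35). Atf3, Atf4 and Asns were added to the named genes after their values were seen.

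Amino acid transporters of the plasma membrane were split. Of 11 tested, 5 were higher and 6 lower. Counted at an unadjusted p under 0.05, 3 were higher and 2 lower, beside 7.64% and 7.44% of all genes. Slc38a3, a glutamine carrier of hepatocytes, read 3.30, 3.59 and 3.34 in vehicle and 3.02, 2.98 and 2.82 in tBA liver, a difference of -0.47 (SE 0.12, limma adjusted p = 0.214). Slc1a5, another glutamine carrier, was at -0.43, the cationic carrier Slc7a2 at 0.31, the neutral carrier Slc38a4 at 0.31 and Slc16a10, a carrier of aromatic amino acids added after its value was seen, at 0.83. These 5 genes are the ones at that p, and their groups did not overlap, beside 24.1% of all genes. The median of the list was -0.088, and within slide 1 it was 0.15.

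Wars1, the cytosolic tryptophanyl enzyme, is known to be raised by interferon. Its brightest probe read 3.28, 3.24 and 3.68 in vehicle and 3.44, 3.35 and 3.26 in tBA liver, with tBA inside the vehicle range. This probe was at -0.048 and the other probes of Wars1 at -0.19 and -0.16. The groups overlapped for each of them. Of 16 interferon-induced genes, 13 were lower and 3 higher. At an unadjusted p under 0.05, 3 of the 16 were lower, beside 7.44% of all genes: Cd274 at -1.54, Psmb8 at -0.71 and Tap1 at -0.54. Psmb9 was at -0.47. The list had array medians of 0.010, 0.062 and -0.12 in vehicle and 0.18, -0.86 and -0.19 in tBA liver, so tBA 2 stood apart, and Wars1 was not lowest there. The list's median difference was -0.25, and 0.18 within slide 1. The array tBA 2 also had the lowest median of the B and plasma cell markers, at -1.37, and of the T and NK cell markers, at -0.49. The part of these cells in the interferon values was not tested.

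**Figure D4:**
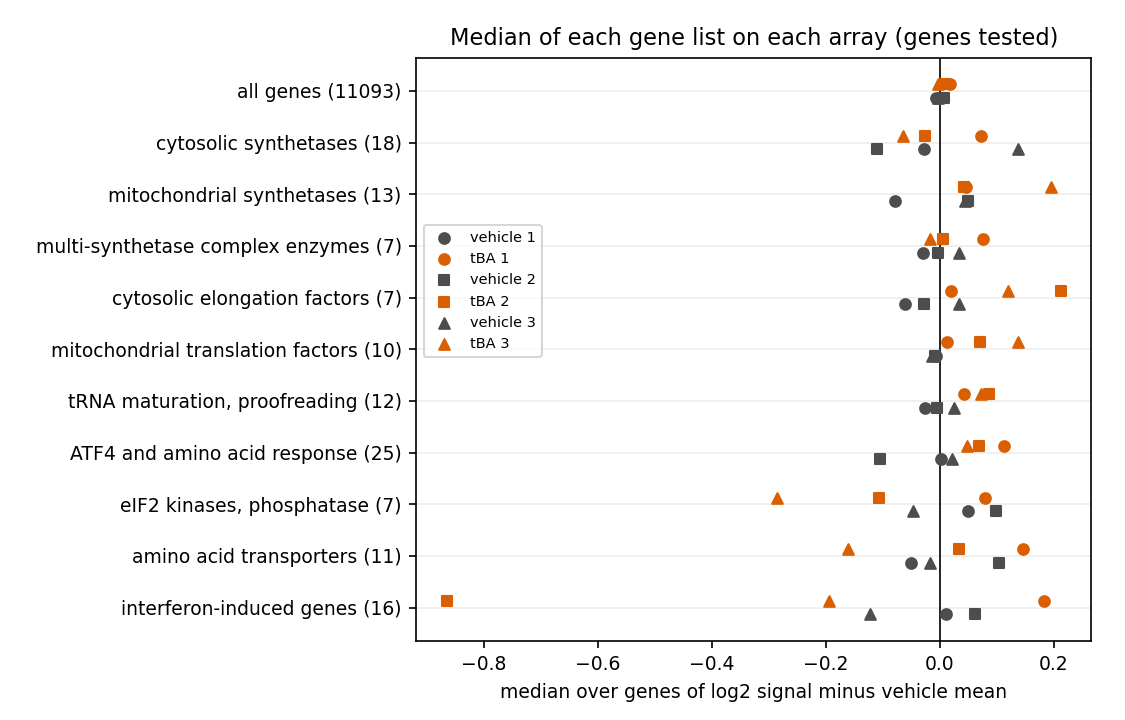
Median over the genes of each list of the log2 signal minus the gene's vehicle mean, on each array, with the number of genes tested in brackets; grey is vehicle, orange is tBA, and the shape gives the replicate. Both sets of synthetases stay within 0.20 of 0 on all 6 arrays, while the interferon-induced list reaches -0.86 on tBA 2.

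Markers of other cell types were set beside these values as sums of the linear signal over each list, in units of the 75th percentile of the array. The 10 hepatocyte markers summed to 5229 to 5658 in vehicle and 5223 to 5502 in tBA liver, ranges that overlapped. Endothelial markers, 5 of 6 with a probe and all above background, summed to 43.2 to 48.8 and 50.9 to 53.3. Kdr, with by far the highest log2 signal of this list (5.13 to 5.45), weighed most in these sums and was at 0.22. Of the 5, 4 were higher and 1, Cdh5, lower at -0.038, with a median of 0.18 (0.14 within slide 1). Markers of proliferating cells, 8 of 9 with a probe, summed to 2.86 to 3.16 and 1.52 to 2.16, and all 8 were lower, with a median of -0.91 that was -0.42 with normexp correction and -0.48 within slide 1. Of these 8, 7 had an unadjusted p under 0.05, beside 15.1% of all genes. Nuf2 passed (limma adjusted p = 0.00624) but was well above background on only 3 of 6 arrays. It read -3.65, -3.78 and -3.69 in vehicle and -5.39, -5.44 and -5.64 in tBA liver. It thus entered the test through the vehicle group alone, where it was high, and its tBA values lay near background. With only probes above background on all arrays, 0 of all probes passed. Markers of T and NK cells were lower for 6 of 7 tested, with a median of -0.28 and sums of 2.53 to 4.12 in vehicle and 2.11 to 2.89 in tBA liver. For B and plasma cells 3 of 3 were lower, with a median of -0.44 (-0.19 with normexp correction, -0.021 within slide 1) and sums of 0.396 to 0.621 and 0.222 to 0.557. Macrophage markers were lower for 6 of 7, with a median of -0.19 (4 of 7 lower with median scaling) and sums of 92.0 to 113 and 93.2 to 98.0. All 7 stellate markers were lower, with a median of -0.12 (-0.052 with median scaling, where 3 were higher) and sums of 25.4 to 31.4 and 20.5 to 27.3. All 3 tested neutrophil markers were higher, with a median of 0.33 and sums of 1.38 to 2.35 and 2.29 to 2.49. Within slide 1 their median was 0.59, with 2 higher and 1 lower. Of 3 tested muscle markers, 2 were higher, with a median of 0.20 (0.41 within slide 1) and sums of 0.620 to 0.824 and 0.804 to 0.881. Sums overlapped between the groups for bile duct, acinar, adipocyte and red blood cell markers. All 4 tested acinar markers were higher, with a median of 0.23 (0.14 with normexp correction, 0.12 within slide 1). Both adipocyte markers tested were higher, with a median of 0.23 (0.11 with normexp correction, 0.22 within slide 1). For bile duct and for red blood cells 2 markers were higher and 2 lower. The part of these cell types in the synthetase values was not tested. Of the acinar markers, 5 of 8 were above background on at least 1 array, and Cela1, Pnlip and Prss1 on none.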

How the data were processed

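Cy3-labelled total liver RNA of 6 rats was hybridised to 1 one-colour Agilent array each. The intensity values, and the other values that flag spots as above background, saturated or outlying, come from Agilent's Feature Extraction software, which the authors ran (10.7.1.1 per the file headers, 10.7 per the submitters' processing notes). The deposited series table holds a linear ratio: each array's processed signals over 1 divisor, 570.0 to 639.5, near its 75th percentile, for 100% of probes. Its column medians were 0.0950 to 0.102, and higher values mean more signal.

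Control spots were left out and 3 to 16 outlying spots per array set missing. The log2 signal minus the array's 75th percentile was the input to limma 3.58.1 in R 4.3.3 (lmFit, eBayes), with Benjamini-Hochberg adjustment over the 37647 probes detected above background on every array of either group, of which 43 (0.114%) passed. A gene took its probe with the highest mean signal. Accessions were matched to RefSeq genes of GRCr8, which named 27460 probes. The array annotation uses rn4, per the file headers, so no array coordinates are given. Promoter sequences are those of RefSeq for GRCr8. The number of arrays, 3 per group, limits the precision. Replicates are separate animals, per the labels.

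The members and lists were chosen with earlier results of these data known. Named were members at an unadjusted p under 0.05, the 3 largest differences each way per compartment, the members with the highest and lowest signal, members whose probes differed in sign with 1 probe at that p, and up to 4 genes per pathway list by p. Of the genes so chosen, 1 is not reported here. Deviations from the group mean correlated at -0.056, -0.064 and 0.014 between same-numbered vehicle and tBA arrays. Between differently numbered arrays the values were -0.058 to 0.11. The fit used no pairing, and a check with 3 arrays a group cannot establish that none existed. Normexp used the median spot signal. Alternatives are described in the closing section. Only the fitting step was tested on simulated arrays, with changes larger than those of the synthetases. Python 3.11.15, numpy 2.4.6, pandas 2.3.3 and matplotlib 3.10.9 were used for tables and figures.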

Additional observations from a re-analysis of the deposited data

How the results depend on the processing

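No synthetase passed an adjusted p under 0.05 in limma in any of the 19 other settings, and the lowest adjusted p of a synthetase ran from 0.167 to 0.615. The 3 synthetases at an unadjusted p under 0.05 became 1 with normexp background correction (offset 50) and 1 with the replicate number as a block, and 1 to 4 when 1 array was left out. The median of the mitochondrial enzymes, 0.099, was 0.0077 with normexp and -0.0042 to 0.14 with 1 array left out. The count of all probes called, 43, was 18 with no filter on dim probes, 0 with probes above background on all arrays, 68 with an intensity trend, 20 with slide as a fixed block, 0 within slide 1, 6 with the replicate block and 6 to 45 with 1 array left out (6 and 14 on removing tBA 2 or tBA 3, 22 and 25 on removing vehicle 1 or vehicle 3), and by the mean of probes 4 genes were called. Some of the 19 settings cannot change a difference, so a sign kept there is no check. The changed filters on dim probes, the intensity trend and the replicate block alter only the test. Slide as a fixed block gives the same difference as slide 1 alone, and the deposited values are nearly the same signal. Of 16 named synthetases, 8 kept their sign in all 19 settings: Farsb, Nars1, Tars1, Yars1, Ears2, Tars2, Vars2 and Yars2. The others, all 0.20 or less in size, turned as follows. With normexp, Eprs1 was at -0.0078, Kars1 at 0.0052, Vars1 at 0.069, Aars2 at -0.0010 and Hars2 at 0.0032. With quantile normalization Eprs1 was at -0.080 and Vars1 at 0.050, with median scaling Vars1 at 0.066 and Hars2 at 0.067, and with the percentile over detected probes Eprs1 at -0.0016. With slide as a block and within slide 1, Cars1 was at 0.069, Aars2 at -0.036 and Fars2 at -0.0090. By the mean of probes Eprs1 was at -0.0066 and Wars2 at 0.021. Without 1 array the ranges were -0.031 to 0.048 for Eprs1, -0.075 to 0.083 for Vars1, -0.0042 to 0.17 for Aars2, -0.046 to 0.049 for Hars2 and -0.37 to 0.14 for Wars2. The cause was not tested. With 3 arrays a group, the widest 95% intervals of the synthetases reached 0.83 on the log2 scale, or 1.78-fold.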
